A study of Mus musculus with 10 samples.

Results

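The comparison set lung tumors of RPR2;Nfibf/f mice, named Nfib-floxed below, against lung tumors of RPR2 mice. The members are 6 of the 10 libraries of the series, 3 of each genotype, chosen by their labels. The RPR2 tumors come from mice JHK1373, JHK1394 and JHK1548, and the Nfib-floxed tumors from mice JHK997, JHK1398 and JHK1399, so that every tumor comes from a different mouse. Of the 35288 genes in the table, the 15430 whose mean over these 6 libraries reached 1 TPM were tested. TPM is a transcript's length-corrected share, scaled to the same total in each library. RPR2 is the mouse model of small cell lung cancer in which Rb1, Trp53 and Rbl2 are deleted in lung cells, so both genotypes carry those deletions. The Nfib-floxed mice carry floxed Nfib alleles in addition. The promoter or virus that delivers Cre, the age and the strain of the mice are not stated in the labels. RNA was read from whole macrodissected tumors taken at morbidity, so fewer cells of a type and less RNA per cell cannot be told apart. The 4 other libraries are liver metastases, and their levels are given beside a few genes with no test.

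Small cell lung cancer is a neuroendocrine tumor that loses RB1 and p53. NFIB belongs to the nuclear factor I family of transcription factors, which bind TTGGC paired with its reverse complement GCCAA. It shapes chromatin accessibility and lung development. In this mouse model Nfib and the oncogene Mycl, both on chromosome 4, are known to be gained, and Nfib is known as a promoter of metastasis. Whether loss of Nfib alters the primary tumor is the question this comparison addresses.

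Correlations between the libraries did not divide them by genotype. On log2(TPM + 1), tumors of the same genotype correlated at Pearson's r of 0.832 to 0.947 and tumors of different genotype at 0.854 to 0.904. The Nfib-floxed tumor of JHK1398 correlated at 0.832 to 0.881 with the other lung tumors and received a limma array weight of 0.2011, the lowest of the 6. Mitochondrially encoded transcripts made up 12.9% of its TPM against 4.32% to 7.13% in the other 5 tumors. The club cell secretoglobin Scgb1a1, a marker of normal airway, made up 5.02% of TPM there and 5.48% in the RPR2 tumor of JHK1394, against 0.136% to 0.965% in the other 4 tumors. The 4 Y-linked genes measured summed to 132 TPM in JHK1394 and 309 TPM in JHK997 and to at most 2.67 TPM in the other 4 lung tumors. List medians are therefore given with and without JHK1398, and without both JHK1394 and JHK1398 where that alters a direction.

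Insm1 and Nkx2-1 were expressed in all 6 tumors, whereas some other neuroendocrine markers, given below, varied widely between them. The neuroendocrine factor Insm1 stood at 102 to 195 TPM. The lung and thyroid lineage factor Nkx2-1 stood at 171 to 421 TPM. Neurod1 and Pou2f3, which each mark a small cell subtype, stood at or below 0.23 TPM and 0.136 TPM.

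Nfib RNA was still present in the Nfib-floxed tumors. It stood at 85.3, 28.3 and 118 TPM in the RPR2 tumors of JHK1373, JHK1394 and JHK1548, and at 38.6, 38.0 and 26.5 TPM in the Nfib-floxed tumors of JHK997, JHK1398 and JHK1399. The RPR2 tumors of JHK1373 and JHK1548 lay above all others, while JHK1394 lay among the Nfib-floxed tumors, so the groups overlapped. The means were 77.1 ± 45.3 TPM (SD, n = 3) and 34.4 ± 6.85 TPM (SD, n = 3), and the difference of -42.7 TPM gave p = 0.3 by a two-sided exact permutation test, whose smallest possible p is 0.1. Without JHK1394 the Nfib level difference was -67.2 TPM (exact p = 0.1, the smallest possible), and without JHK1548 it was -22.4 TPM (exact p = 0.4). Nfib spans chr4:82290173-82705750 on the minus strand of GRCm38. The gene total sums reads from every exon, also those outside a floxed part, so it does not show whether recombination took place. The liver metastases of RPR2 mice JHK1373 and JHK1394 held 62.8 and 643 TPM of Nfib, and those of Nfib-floxed mice JHK1398 and JHK1399 held 46.1 and 41.3 TPM.

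The other 3 family members overlapped between genotypes. Nfic stood at 50.6 to 68.7 TPM in RPR2 and 47.4 to 69.0 TPM in Nfib-floxed tumors, with a log2 difference (Nfib-floxed minus RPR2 on log2(TPM + 1), as throughout) of 0.01 ± 0.29 (SE). Nfix stood at 8.98 to 18.8 TPM in RPR2 and at 10.2, 9.40 and 56.7 TPM in Nfib-floxed tumors, the last of them JHK1399. Nfia stayed between 1.31 and 6.03 TPM in all 6. Of the 3 genes deleted in both genotypes, Rb1 stood at 41.6 to 143 TPM, Rbl2 at 6.97 to 32.4 TPM and Trp53 at 14.6 to 28.0 TPM, and here too the gene total does not report on the deleted part. Trp53 alone of these 3 did not overlap, with 16.3, 16.2 and 14.6 TPM in RPR2 against 28.0, 27.6 and 18.7 TPM in Nfib-floxed tumors (adjusted p = 0.727, limma).

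No gene passed. In limma on log2(TPM + 1), two-sided with Benjamini-Hochberg adjustment over the 15430 genes, 0.0% were called at an adjusted p under 0.05, and the smallest adjusted p was 0.693. At an unadjusted p under 0.05 there were 1093 genes (7.08%), of which 487 (3.16%) lay higher and 606 (3.93%) lower in Nfib-floxed tumors. The higher genes made up 44.6% of these, against 55.1% with quantile normalization (694 higher, 565 lower) and 56.9% with centring on the library medians (725 higher, 549 lower). The values of the 3 Nfib-floxed tumors all lay above the 3 RPR2 tumors for 896 genes (5.81%) and all below for 1351 genes (8.76%). With a gap of at least 2-fold on TPM + 1 between the groups, 29 genes (0.188%) lay higher and 18 (0.117%) lower. The log2 difference was below 0 for 8837 genes (57.3%), and its median over all genes was -0.10, or 0.05 without JHK1398. Counts of genes in the following are descriptions against these shares, not calls. They use TPM not centred on the library medians, unlike the median deviations given for lists and chromosomes. In the 2 tumors left of the Nfib-floxed group when JHK1398 was omitted, 1252 genes lay higher and 810 lower at an unadjusted p under 0.05, and the smallest adjusted p was 0.183.

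The 12 genes of smallest p that lay higher in Nfib-floxed tumors with no overlap, among those whose higher group averaged 5 TPM or more, were led by Rasgrf1. Rasgrf1 encodes a guanine nucleotide exchange factor for Ras and is imprinted in the mouse. It stood at 2.88, 7.08 and 6.76 TPM in the RPR2 tumors of JHK1373, JHK1394 and JHK1548 and at 106, 30.9 and 48.4 TPM in the Nfib-floxed tumors of JHK997, JHK1398 and JHK1399. Every Nfib-floxed tumor lay more than 4-fold above every RPR2 tumor. The log2 difference was 3.14 ± 0.52 (SE; adjusted p = 0.693, limma) and 3.54 without JHK1398. The 4 metastases of both genotypes held 0.122 to 3.06 TPM. Rgs11, which ends signalling by inhibitory G proteins, stood at 45.0, 33.2 and 29.8 TPM in RPR2 and 122, 109 and 104 TPM in Nfib-floxed tumors (1.62 ± 0.28). Med12, an X-linked subunit of the Mediator kinase module, stood at 38.1, 28.0 and 47.7 TPM against 139, 110 and 153 TPM (1.81 ± 0.30).

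Several of the other higher genes encode cell surface or matrix proteins. Cd59a, which blocks the complement membrane attack complex, stood at 23.8, 42.3 and 34.3 TPM in RPR2 tumors and 366, 104 and 146 TPM in Nfib-floxed tumors. Thy1, a glycoprotein of neurons, T cells and fibroblasts, stood at 6.11, 2.26 and 7.33 TPM against 44.0, 56.0 and 19.3 TPM. The collagen chain gene Col5a3 stood at 2.11, 2.58 and 1.93 TPM against 15.3, 10.7 and 10.2 TPM. The costimulatory receptor gene Tnfrsf4 stood at 1.83, 1.02 and 2.12 TPM against 10.5, 11.4 and 7.51 TPM. In each of these 4 genes the lowest Nfib-floxed tumor lay more than 2-fold above the highest RPR2 tumor. Perm1 (log2 difference 1.88), Rnf112 (1.90) and the Groucho corepressor gene Tle2 (1.47) completed this group with Klk1b22 (4.04) and Hist2h2aa2 (1.51), whose families hold near-identical copies, so that their levels are uncertain.

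**Figure D1:**
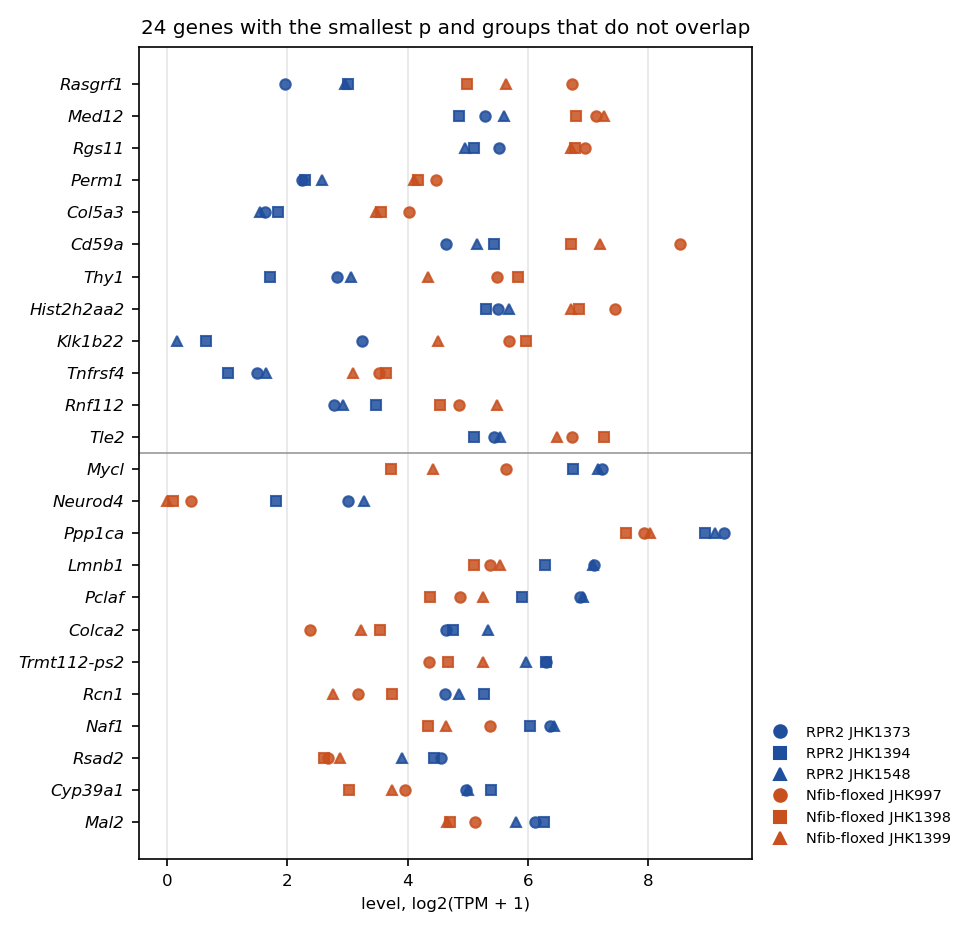
Levels, as log2(TPM + 1), of the 12 genes that lay higher (above the line) and the 12 that lay lower (below it) in Nfib-floxed tumors with the smallest p and no overlap, 1 point per lung tumor. Blue points are RPR2 tumors and orange points Nfib-floxed tumors, with the symbol giving the mouse. The genes were chosen for this separation, and none had an adjusted p under 0.693.

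Mycl led the 12 lower genes. It encodes L-MYC, a driver of small cell lung cancer, and is widely gained in this model. Mycl stood at 149, 106 and 141 TPM in RPR2 tumors and at 48.8, 12.2 and 20.4 TPM in Nfib-floxed tumors. The 3 RPR2 tumors lay at least 2-fold above each Nfib-floxed tumor, and JHK1398 was the lowest. The log2 difference was -2.45 ± 0.47 (SE; adjusted p = 0.693, limma) and -2.01 without JHK1398. The RPR2 metastases of JHK1373 and JHK1394 held 482 and 166 TPM, and the Nfib-floxed metastases of JHK1398 and JHK1399 held 981 and 31.6 TPM. JHK1398 thus held the most Mycl among the metastases but the least among the lung tumors. The metastases of JHK1373, JHK1394 and JHK1399 kept the order of the lung tumors of these mice. Among the 12 tested genes of the MYC family and its partners, Mycl alone had an unadjusted p under 0.05. Mycn stood at 1.43, 3.30 and 8.64 TPM in RPR2 and 20.8, 3.60 and 6.35 TPM in Nfib-floxed tumors, and Myc stayed between 1.74 and 13.2 TPM in all 6.

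Neurod4, a neurogenic helix-loop-helix factor, was the next lower gene. It stood at 7.04, 2.53 and 8.71 TPM in RPR2 tumors and at 0.325, 0.077 and 0 TPM in Nfib-floxed tumors, with a log2 difference of -2.53 ± 0.51 (adjusted p = 0.693, limma). The metastases split in the same way, with 24.2 and 38.3 TPM in RPR2 and 0.134 and 0.0941 TPM in Nfib-floxed mice. Neurog3, the factor that commits pancreatic and gut cells to an endocrine fate, stood at 6.48, 2.51 and 5.16 TPM in RPR2 and 0.347, 0.815 and 0.297 TPM in Nfib-floxed lung tumors (-1.89 ± 0.47). Id4, an inhibitor of helix-loop-helix factors, stood at 259, 252 and 271 TPM against 194, 185 and 94.0 TPM (-0.79 ± 0.33). All 10 tested neurogenic helix-loop-helix and ID genes had a log2 difference below 0, against 57.3% of all genes. Their median was -0.44, and 3 lay lower at an unadjusted p under 0.05, against 3.93% of all genes. Without JHK1398, 9 of the 10 were below 0 and the median was -0.70.

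The remaining lower genes of the 12 included growth and secretory genes. Ppp1ca, the catalytic subunit of protein phosphatase 1 that acts on RB family proteins among many others, stood at 612, 488 and 551 TPM in RPR2 and 242, 197 and 259 TPM in Nfib-floxed tumors (-1.24 ± 0.26). The lamin gene Lmnb1 stood at 136, 76.4 and 134 TPM against 40.2, 33.3 and 45.5 TPM (-1.48 ± 0.32). Pclaf, which binds PCNA at replication forks, stood at 115, 58.6 and 120 TPM against 28.1, 19.6 and 36.9 TPM (-1.74 ± 0.39). In Lmnb1 and Pclaf the RPR2 tumor of JHK1394 was the lowest of its group. Colca2, which encodes a coactivator of POU2F factors, had a log2 difference of -1.86, the endoplasmic reticulum protein gene Rcn1 -1.68, the oxysterol hydroxylase gene Cyp39a1 -1.54 and the membrane traffic gene Mal2 -1.24. The pseudogene Trmt112-ps2 (-1.43) may share reads with its parent, and Naf1 and Rsad2 are described with their lists.

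The promoters of Rasgrf1 and Neurod4 are shown because Nfib is a DNA-binding factor and these 2 genes stand near the top of each direction. They are the 250 bases before the start of each gene, chr9:89909525-89909774 on the plus strand and chr10:130280255-130280504 on the minus strand, from RefSeq (GRCm38.p6). Capitals mark the single arm of the nuclear factor I motif, TTGGC or its reverse complement GCCAA.
Rasgrf1: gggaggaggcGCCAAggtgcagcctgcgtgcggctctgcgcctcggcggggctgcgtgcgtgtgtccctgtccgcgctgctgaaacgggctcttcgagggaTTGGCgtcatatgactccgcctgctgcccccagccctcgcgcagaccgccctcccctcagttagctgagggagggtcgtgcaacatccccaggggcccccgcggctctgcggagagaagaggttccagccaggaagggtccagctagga
Neurod4: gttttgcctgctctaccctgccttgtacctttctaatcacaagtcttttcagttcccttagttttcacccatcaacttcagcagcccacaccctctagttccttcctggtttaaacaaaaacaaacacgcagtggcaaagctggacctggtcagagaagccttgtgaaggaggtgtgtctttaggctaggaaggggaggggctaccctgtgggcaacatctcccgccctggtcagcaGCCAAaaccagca
Rasgrf1 held 2 arms and Neurod4 held 1. Such an arm was common: 5629 of the 11178 tested genes with a promoter in the table held it on either strand (50.4%), against 49.1% of the 652 such genes that lay higher with no overlap and 52.0% of the 1014 that lay lower. The paired motif, TTGGC and GCCAA with 5 bases between them, was found before 4 of the 11178 genes (0.0358%). The arm GCCAA can overlap the CCAAT box, and TTGGC lies inside the E2F motif TTTGGCGC. A match is a description of the letters, not a site of binding.

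Of the 54 gene lists described, 27 cover tumor programs, 22 other cell types and 5 RNA quality, stress or sex. No tested member of any list was called by limma. Genes of cell division lay lower. All 68 tested genes of mitosis and the spindle had a log2 difference below 0, against 57.3% of all genes, and 66 of 68 without JHK1398. Their median was -0.82, against -0.10 over all genes, and -0.62 against 0.05 without JHK1398. At an unadjusted p under 0.05 there were 23 of 68 lower, against 3.93% of all genes, and 0 higher. Lower with no overlap were 13 (19.1%), against 8.76% of all genes.

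Within the mitosis list the separation rested on part of the RPR2 group. With each library's median over all genes set to 0, the list's median deviation from the mean of the 6 tumors was 0.69 log2 units in the RPR2 tumor of JHK1373 and 0.75 in JHK1548, but -0.23 in JHK1394. In the Nfib-floxed tumors it was -0.53 in JHK997, -0.57 in JHK1398 and -0.09 in JHK1399, so the list median of JHK1394 lay below that of JHK1399. Kif11, the spindle motor kinesin, stood at 95.5, 33.6 and 97.6 TPM in RPR2 and 25.0, 12.9 and 27.3 TPM in Nfib-floxed tumors (-1.67 ± 0.49). The kinetochore gene Spc25 stood at 113, 76.2 and 129 TPM against 45.0, 41.2 and 55.1 TPM (-1.13 ± 0.30). The mitotic kinase gene Melk stood at 34.6, 20.2 and 35.6 TPM against 11.4, 5.91 and 12.9 TPM (-1.51 ± 0.41). In all 3 genes JHK1394 lay between the other RPR2 tumors and the Nfib-floxed tumors. Kif2c, which depolymerizes microtubules, separated the groups by a margin within rounding, with 24.52 TPM in JHK1394 and 24.49 TPM in JHK1399.

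The DNA replication and E2F target list lay lower as well. Of its 57 tested genes, 51 had a log2 difference below 0, and the median was -0.56, or -0.47 without JHK1398. At an unadjusted p under 0.05 there were 15 lower, against 3.93% of all genes, and 0 higher. Lower with no overlap were 17 (29.8%), against 8.76% of all genes. The list's median deviation was 0.40 in JHK1373 and in JHK1548 but -0.105 in JHK1394, close to the -0.119 of the Nfib-floxed tumor of JHK997. It was -0.249 in JHK1398 and -0.357 in JHK1399. The summed levels overlapped, at 4753 TPM in JHK1394 and 4979 TPM in JHK997. Rrm2, the ribonucleotide reductase subunit, stood at 101, 54.1 and 133 TPM in RPR2 and 29.1, 14.3 and 44.9 TPM in Nfib-floxed tumors (-1.72 ± 0.49). Mcm6, a subunit of the replicative helicase, stood at 237, 210 and 213 TPM against 115, 65.3 and 146 TPM (-1.08 ± 0.33). The chromatin assembly gene Chaf1a stood at 41.0, 35.6 and 28.6 TPM against 14.1, 9 and 17.5 TPM, and the flap endonuclease gene Fen1 at 66.9, 64.3 and 75.3 TPM against 34.9, 43.9 and 28.4 TPM. All 4 genes separated the groups, and in Mcm6, Chaf1a and Rrm2 JHK1398 was the lowest tumor. Among regulators of the pathway, E2f2 stood at 93.2, 43.0 and 77.2 TPM against 32.0, 16.6 and 34.0 TPM (-1.33 ± 0.41) and E2f5 at 22.5, 15.0 and 15.6 TPM against 5.31, 10.01 and 8.10 TPM (-1.10 ± 0.39).

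The promoters of Kif11 and Mcm6 are shown because these are the list members of smallest p whose promoters hold the motif by which each program is known to be timed. Kif11 lies at chr19:37376132-37376381 on the plus strand and Mcm6 at chr1:128359706-128359955 on the minus strand (RefSeq, GRCm38.p6, 250 bases before the start). Capitals mark the cell cycle homology region TTTGAA and the CCAAT box in Kif11, both here as their reverse complements, and the E2F motifs TTTGGCGC and TTTCGCGC on either strand in Mcm6, where 1 pair overlaps.
Kif11: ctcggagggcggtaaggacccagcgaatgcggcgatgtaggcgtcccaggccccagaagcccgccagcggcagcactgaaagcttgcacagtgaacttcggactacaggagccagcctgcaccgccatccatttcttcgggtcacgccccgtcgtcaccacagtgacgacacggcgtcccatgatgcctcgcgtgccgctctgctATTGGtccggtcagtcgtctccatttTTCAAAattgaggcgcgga
Mcm6: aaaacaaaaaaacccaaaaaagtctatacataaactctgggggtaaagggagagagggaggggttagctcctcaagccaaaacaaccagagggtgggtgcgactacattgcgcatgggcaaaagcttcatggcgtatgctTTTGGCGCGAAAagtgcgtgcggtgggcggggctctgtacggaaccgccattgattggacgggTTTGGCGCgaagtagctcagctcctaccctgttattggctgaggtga
The homology region TTTGAA stood before 20 of the 56 mitosis genes with a promoter (35.7%) and 13.0% of all 11178. The CCAAT box stood before 39 of the 56 (69.6%) and 40.3% of all. The E2F motifs stood before 7 of the 43 replication genes (16.3%) and 1.36% of all. These shares describe the lists, which were drawn up from known cell cycle genes. Among all genes that lay lower with no overlap, TTTGAA stood before 14.0% and an E2F motif before 1.48%.

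Genes of ribosome production lay lower by a smaller amount. Of 40 tested ribosome biogenesis genes, 31 had a log2 difference below 0, with a median of -0.41, or -0.33 without JHK1398. Of the 40, 16 (40.0%) lay lower with no overlap, against 8.76% of all genes, and 1 (2.5%) higher, against 5.81%. Only 3 had an unadjusted p under 0.05. Naf1, which assembles H/ACA ribonucleoproteins, stood at 81.4, 64.3 and 84.8 TPM in RPR2 and 40.5, 19.2 and 23.8 TPM in Nfib-floxed tumors (-1.49 ± 0.35). The mature members of the same particles, Gar1 and Nhp2, had log2 differences of -0.82 ± 0.30 and -0.74 ± 0.29. Of 36 tested cytosolic ribosomal protein genes, 31 had a log2 difference below 0, with a median of -0.34, or -0.51 without JHK1398. Of the 36, 13 (36.1%) lay lower with no overlap, against 8.76% of all genes, and 1 (2.78%) higher. The list's median deviation was -0.43 in JHK997 and -0.426 in JHK1399. In JHK1398 it was 0.486, above the 0.0467 to 0.191 of the RPR2 tumors. The summed level was 36450 TPM in JHK1398, close to the 36469 TPM of the RPR2 tumor of JHK1394. Rpl4 stood at 1001, 951 and 950 TPM in RPR2 and 639, 346 and 622 TPM in Nfib-floxed tumors. Of the 10 tested heat shock genes, 4 (40.0%) lay lower with no overlap, against 8.76% of all genes. Among them was Hspd1 (128, 131 and 126 TPM against 74.8, 39.8 and 94.3 TPM).

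**Figure D2:**
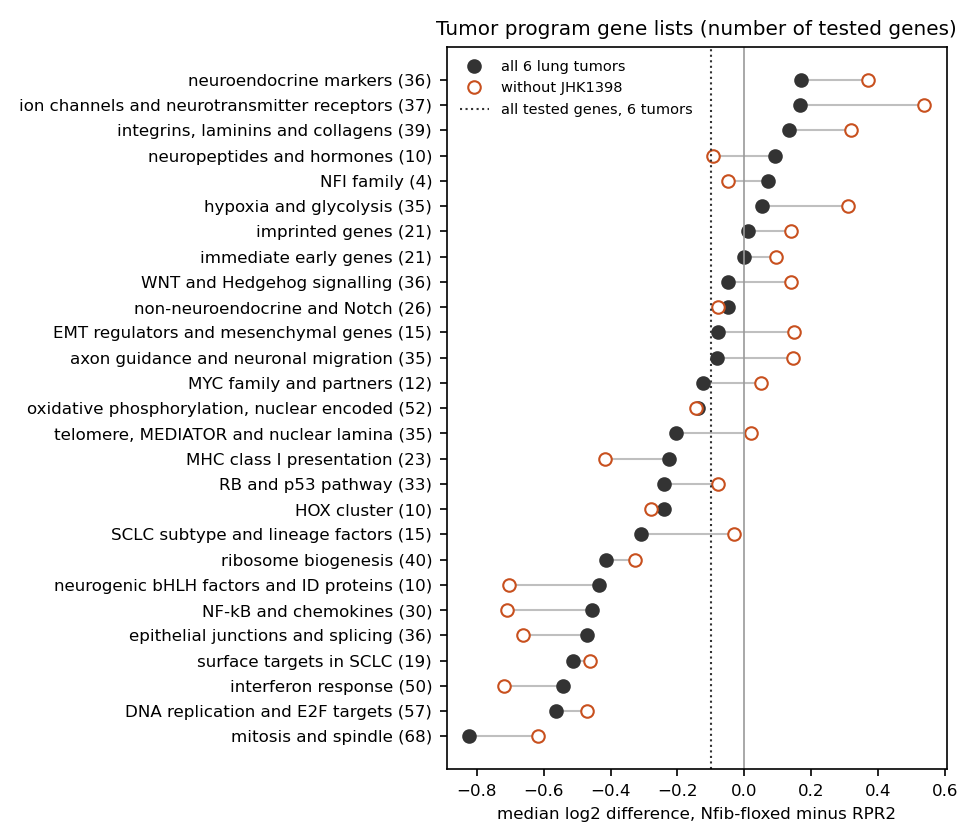
Median log2 difference (Nfib-floxed minus RPR2) of each of the 27 tumor program lists, with the number of tested genes in parentheses. Filled points use all 6 lung tumors, open points leave out JHK1398, and the dotted line marks the median of all tested genes, -0.10. The mitosis list lies lowest at -0.82, and neuroendocrine markers lie highest at 0.17.

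Epithelial genes lay lower in 2 of the 3 Nfib-floxed tumors. Of 36 tested genes of epithelial junctions and epithelial splicing, 30 had a log2 difference below 0, with a median of -0.47, or -0.66 without JHK1398. Of the 36, 9 (25.0%) lay lower with no overlap, against 8.76% of all genes, and 0 higher, against 5.81%. The list's median deviation was -0.36 in JHK997 and -0.66 in JHK1399 but 0.53 in JHK1398, the highest of the 6 tumors. Grhl2, a master factor of epithelial identity, stood at 20.1, 24.1 and 25.7 TPM in RPR2 and 1.71, 11.8 and 1.74 TPM in Nfib-floxed tumors (-2.41 ± 0.62). The desmosome gene Dsp stood at 82.3, 79.2 and 56.4 TPM against 30.9, 22.9 and 43.9 TPM (-1.16 ± 0.34). The tight junction gene Ocln stood at 41.8, 47.0 and 25.8 TPM against 21.9, 16.9 and 14.1 TPM. Epcam, an epithelial adhesion molecule, stood at 736, 733 and 674 TPM against 442, 510 and 316 TPM (-0.78 ± 0.28). Each of these 4 genes separated the groups, whereas the E-cadherin gene Cdh1 overlapped, with 446, 426 and 270 TPM against 250, 209 and 366 TPM. The 15 mesenchymal and transition regulator genes had a median of -0.08, which turned to 0.15 without JHK1398 and to 0.23 without JHK1394 and JHK1398. The mesenchymal filament gene Vim stood at 48.3, 420 and 101 TPM against 143, 227 and 95.7 TPM.

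Of 19 tested surface proteins pursued as targets in small cell lung cancer, 17 had a log2 difference below 0, with a median of -0.51, or -0.46 without JHK1398. The glycoprotein gene Cd24a stood at 1325, 756 and 1430 TPM in RPR2 and 432, 210 and 515 TPM in Nfib-floxed tumors (-1.64 ± 0.42). The receptor kinase gene Ret stood at 128, 110 and 92.98 TPM against 68.5, 54.7 and 61.1 TPM (-0.83 ± 0.27). Both genes separated the groups. Dll3, a Notch ligand of neuroendocrine cells, stood at 27.3, 19.4 and 21.6 TPM against 10.4, 19.8 and 7.92 TPM, with JHK1398 inside the RPR2 range.

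The neuroendocrine lists were mixed in direction. The 36 tested neuroendocrine markers had a median log2 difference of 0.17, or 0.37 without JHK1398, and 14 were below 0. That median was positive with quantile normalization and with centring on the library medians, and over the alternatives it ranged from -0.10, without JHK997, to 0.39. Resp18, a protein of secretory granules, stood at 567, 1033 and 411 TPM in RPR2 and 1802, 1777 and 1721 TPM in Nfib-floxed tumors (1.5 ± 0.37). Its 3 Nfib-floxed values lay within a narrow band above every RPR2 tumor. Calca, the calcitonin and CGRP gene, stood at 18200, 9162 and 11500 TPM in RPR2 and at 71950, 6044 and 68510 TPM in Nfib-floxed tumors. It was high in JHK997 and JHK1399 and lowest of all in JHK1398, so the groups overlapped (1.32 ± 0.92, and 2.5 without JHK1398). The lowest log2 difference of the list was that of the granin gene Scg2, at 302, 556 and 606 TPM in RPR2 and 723, 199 and 1.76 TPM in Nfib-floxed tumors (-2.67 ± 1.71), highest in JHK997 and lowest in JHK1399. The 15 tested small cell subtype and lineage factors had a median of -0.31, with 12 below 0, or -0.03 with 9 below 0 without JHK1398, and none separated the groups. Of 10 tested neuropeptide and hormone genes, 5 were above 0 and 5 below. Among them Cartpt, which encodes the CART neuropeptide, had the largest difference and stood at 3.10, 7.28 and 1.68 TPM against 653, 40.2 and 16.1 TPM (4.1 ± 1.19).

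The 37 tested ion channel and transmitter receptor genes had a median of 0.17, or 0.54 without JHK1398. At an unadjusted p under 0.05 there were 4 higher, against 3.16% of all genes, and 1 lower, against 3.93%. The kainate receptor gene Grik5 stood at 47.2, 30.4 and 48.3 TPM in RPR2 and 116, 77.8 and 84.4 TPM in Nfib-floxed tumors (1.13 ± 0.31). The calcium channel gene Cacna1d stood at 1.58, 5.17 and 2.68 TPM against 8.24, 8.70 and 8.21 TPM (1.27 ± 0.45). The 35 tested axon guidance and migration genes had a median of -0.08, which turned to 0.15 without JHK1398. Of these, 5 (14.3%) lay lower with no overlap, against 8.76% of all genes, and 1 (2.86%) higher. The growth cone gene Gap43 stood at 2.98, 4.72 and 4.72 TPM against 1.30, 0.217 and 0.361 TPM (-1.70 ± 0.46), and Ephb2, an ephrin receptor, at 91.3, 38.5 and 29.0 TPM against 25.1, 13.2 and 16.7 TPM (-1.35 ± 0.47).

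Among 35 tested hypoxia and glycolysis genes the median was 0.05, or 0.31 without JHK1398. The neuronal enolase gene Eno2, also a neuroendocrine marker, stood at 19.1, 17.0 and 18.8 TPM in RPR2 and 59.6, 19.98 and 84.3 TPM in Nfib-floxed tumors. The glycolytic gene Gpi1 stood at 239, 214 and 329 TPM against 533, 404 and 358 TPM. Among 39 integrin, laminin and collagen genes the median was 0.13, or 0.32 without JHK1398, and it turned to -0.15 without JHK997. The integrin gene Itgav stood at 23.3, 39.4 and 27.2 TPM against 73.6, 103 and 51.0 TPM (1.29 ± 0.36). Both Gpi1 and Itgav separated the groups, and Eno2 did so with JHK1398 close to the RPR2 tumors. The 21 imprinted genes had a median of 0.01, or 0.14 without JHK1398, with Rasgrf1 and the growth factor gene Igf2 (158, 279 and 204 TPM against 372, 354 and 289 TPM) higher at an unadjusted p under 0.05.

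Interferon genes lay lower in median, and were highest in the tumors with the highest macrophage and club cell markers. Of 50 tested interferon response genes, 44 had a log2 difference below 0, with a median of -0.54, or -0.72 without JHK1398, and 35 of 50 were below 0 without both JHK1394 and JHK1398. The list's median deviation was 0.91 in the RPR2 tumor of JHK1394 and 0.65 in the Nfib-floxed tumor of JHK1398, against -0.66 to 0.12 in the other 4 tumors. These are the tumors in which macrophage and monocyte markers were also highest, at deviations of 1.07 and 0.65, and in which club cell markers stood at 1.35 and 1.26. The part of those cells in the interferon values was not tested. Of the 50 interferon genes, 6 lay lower with no overlap, against 8.76% of all genes, and 1 higher, against 5.81%. The antiviral genes named here are among the lower ones and do not stand for the rest of the list. Rsad2, which encodes viperin, stood at 22.4, 20.6 and 13.9 TPM in RPR2 and 5.40, 5.12 and 6.31 TPM in Nfib-floxed tumors (-1.57 ± 0.36). Oasl1 stood at 20.1, 18.3 and 15.5 TPM against 8.09, 3.66 and 6.23 TPM (-1.48 ± 0.39), and Ifit2 at 36.5, 45.4 and 35.1 TPM against 19.96, 13.1 and 18.7 TPM (-1.14 ± 0.32). In all 3 genes JHK1398 lay with the other Nfib-floxed tumors, unlike in the list median.

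The promoter of Rsad2, the interferon gene of smallest p, is shown because it holds the core of the interferon-stimulated response element, GAAA and GAAA with 2 bases between them. The 250 bases lie at chr12:26456453-26456702 on the minus strand (RefSeq, GRCm38.p6), and capitals mark the core as its reverse complement.
Rsad2: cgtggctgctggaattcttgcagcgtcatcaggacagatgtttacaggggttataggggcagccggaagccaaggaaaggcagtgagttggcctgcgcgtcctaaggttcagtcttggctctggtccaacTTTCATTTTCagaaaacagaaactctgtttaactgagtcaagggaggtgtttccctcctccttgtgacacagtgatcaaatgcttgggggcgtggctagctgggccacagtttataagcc
The core stood before 16 of the 37 interferon genes with a promoter (43.2%) and 3.42% of all 11178. This share describes the list, which was drawn up from known interferon response genes. Among all genes that lay lower with no overlap, the core stood before 3.06%.

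Summed levels of airway, alveolar and immune markers overlapped between the genotypes. Club cell markers had a median log2 difference of -1.22, or -1.92 without JHK1398, with 9 of 10 below 0. The summed TPM of the list was 9517, 61961 and 13090 in RPR2 and 6927, 56734 and 2123 in Nfib-floxed tumors, so the ranges overlapped. Alveolar type 2 markers summed to 474, 11786 and 774 TPM against 354, 3820 and 1289 TPM, and 8 of 12 were below 0 with a median of -0.54. The median was -1.23 without JHK1398, with 12 of 12 below 0, and it turned to 0.16 without JHK1394 and JHK1398. Macrophage and monocyte markers summed to 1073, 4859 and 2018 TPM against 2001, 2326 and 1369 TPM, and B and plasma cell markers to 1438, 1237 and 4672 TPM against 4279, 19071 and 1696 TPM. No defining marker of these lists was at 0 in all 6 tumors. Hepatocyte markers summed to 214 to 1453 TPM over the 6 tumors.

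Fibroblast and general endothelial markers lay higher in median. Of 18 endothelial markers, 16 had a log2 difference above 0, against 42.7% of all genes, with a median of 0.43, or 0.54 without JHK1398. Their deviation was 0.22 to 0.30 in the 3 Nfib-floxed tumors and -0.39, 0.26 and -0.60 in the RPR2 tumors, so JHK1394 fell within the Nfib-floxed range. Egfl7, a secreted endothelial factor, stood at 25.6, 36.5 and 28.5 TPM in RPR2 and 48.5, 58.4 and 59.7 TPM in Nfib-floxed tumors (0.87 ± 0.29). The 9 tested markers of lung capillary endothelium had a median of -0.29, or -0.11 without JHK1398, with 4 above 0 and 5 below, and the median turned to 0.45 without JHK1394 and JHK1398. Of 17 fibroblast markers, 15 were above 0, with a median of 0.40, or 0.53 without JHK1398. The microfibril gene Mfap5 stood at 4.95, 5.12 and 7.26 TPM against 15.6, 18.4 and 12.3 TPM (1.28 ± 0.37), and the matrix Gla protein gene Mgp at 354, 345 and 456 TPM against 1472, 787 and 457 TPM. The summed fibroblast level was 667, 785 and 693 TPM in RPR2 and 2140, 1269 and 936 TPM in Nfib-floxed tumors and did not overlap. The list's median deviation did overlap, at -0.702, 0.208 and -0.336 in RPR2 and 0.415, 0.591 and 0.195 in Nfib-floxed tumors. Of the 17 fibroblast markers, 2 (11.8%) lay higher with no overlap, against 5.81% of all genes. Of 13 smooth muscle and pericyte markers, 12 were above 0, with a median of 0.32, or 0.59 without JHK1398. Their deviation was 1.09 in JHK997 against -0.60 to just below 0 in the RPR2 tumors and -0.01 and -0.38 in JHK1398 and JHK1399. Without JHK997 the median turned to -0.25, and the summed levels overlapped, at 68.4 to 175 TPM in RPR2 and 85.7 to 595 TPM in Nfib-floxed tumors. Higd1b, a pericyte marker, stood at 5.36, 3.69 and 2.2 TPM against 13.4, 7.47 and 17.5 TPM. The part of stromal cells in Thy1 and Col5a3, which fibroblasts also express, was not tested.

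Mitochondrially encoded genes lay higher, most of all in JHK1398. The 13 tested genes had a median log2 difference of 0.69, or 0.32 without JHK1398, and their median deviation was 1.44 in JHK1398, 0.16 in JHK1399 and -0.56 to -0.28 in the other 4. Of these, 2 separated the groups, mt-Atp8 (4082, 3610 and 3575 TPM against 7924, 11650 and 6255 TPM) and mt-Nd1 (2670, 2216 and 3087 TPM against 4089, 7703 and 4200 TPM). Since TPM sums to a fixed total, a larger mitochondrial share leaves less for all other genes of a library. The 52 nuclear genes of oxidative phosphorylation had a median of -0.14, which turned to 0.01 with quantile normalization.

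**Figure D3:**
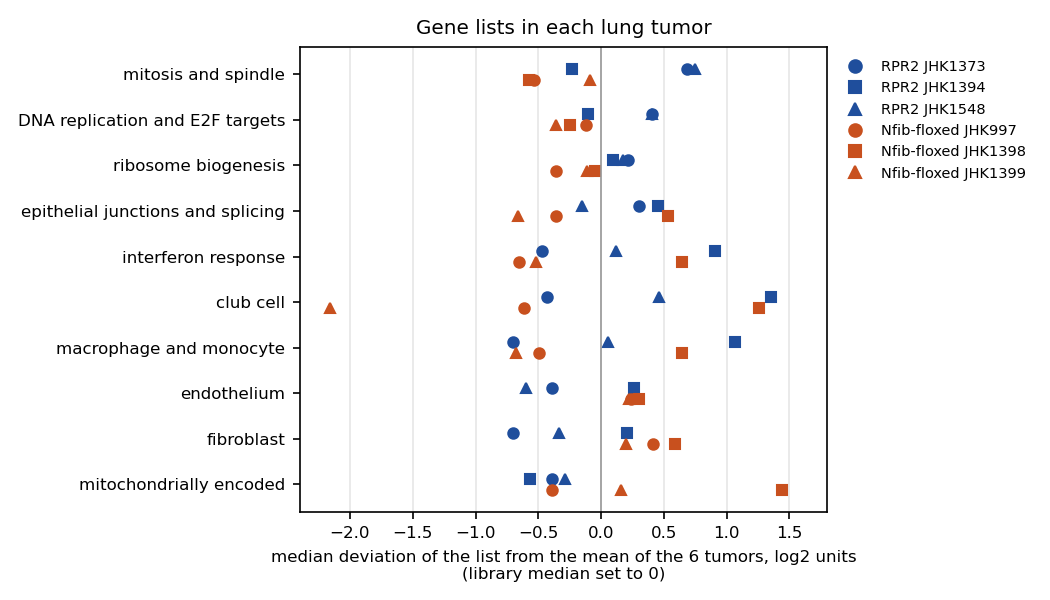
Median deviation of 10 gene lists in each lung tumor from the mean of the 6 tumors, in log2 units, with each library's median over all tested genes set to 0. Blue points are RPR2 and orange points Nfib-floxed tumors, with the symbol giving the mouse. The interferon, club cell and macrophage lists stand highest in JHK1394 and JHK1398 (squares), while JHK1394 lies apart from the other RPR2 tumors in the mitosis list.

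The genes with no overlap were also ranked by the size of the difference in mean TPM. The 6 lower genes were Ptma, Stmn1, Eef1a1, H2afz, H3f3a and Ly6e. The microtubule regulator Stmn1 stood at 5108, 1509 and 5211 TPM in RPR2 and 1426, 1403 and 1058 TPM in Nfib-floxed tumors, so its separation was narrow at JHK1394. The histone variant gene H2afz stood at 2075, 1220 and 2658 TPM against 1219, 385 and 899 TPM, which touched at JHK1394 and JHK997. Ly6e, an interferon-inducible surface protein, stood at 902, 1997 and 493 TPM against 141, 376 and 280 TPM. The 6 higher genes were mt-Atp8, mt-Nd1, Resp18, Mgp, Cd9 and Obp2a. The tetraspanin gene Cd9 stood at 1796, 3762 and 1797 TPM against 3975, 4001 and 3956 TPM. Obp2a, a lipocalin, stood at 18.5, 20.2 and 17.2 TPM against 45.0, 117 and 3618 TPM, so its mean was set by JHK1399.

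Differences were unevenly spread along the genome. Chromosome 19 held 504 tested genes with a median log2 difference of -0.42, or -0.39 without JHK1398. Of them, 139 (27.6%) lay lower with no overlap, against 8.76% of all genes, and 11 (2.18%) higher, against 5.81%. These counts use TPM as given, whereas the deviations below set each library's median to 0. The median over chromosome 19 ranged from -0.47 to -0.31 over the 19 alternatives run for it. The chromosome's median deviation was 0.16, 0.21 and 0.13 in the RPR2 tumors and -0.31 and -0.28 in the Nfib-floxed tumors of JHK997 and JHK1399, but 0.19 in JHK1398, which lay with the RPR2 tumors. Measured from the same mean, it was 0.10 and 0.16 in the RPR2 metastases, 0.20 in the metastasis of JHK1398 and -0.63 in that of JHK1399. Of 230 windows of 10 Mb with at least 20 tested genes, the 3 with the largest share of genes lower with no overlap lay on chromosome 19, at 30 to 40 Mb (46.8%), 50 to 60 Mb (36.8%) and 10 to 20 Mb (32.8%). Ppp1ca (chr19:4192065-4195420), Kif11 and Ifit2 lie on this chromosome, as do the serine synthesis gene Psat1 (64.0, 34.7 and 86.0 TPM against 18.6, 21.9 and 14.8 TPM) and the RNA polymerase II subunit gene Polr2g (166, 174 and 186 TPM against 101, 87.5 and 105 TPM). With the genes of chromosomes 4 and 19 left out, the median was -0.77 for mitosis (60 of 60 below 0), -0.52 for replication and -0.30 for ribosome biogenesis, and 7.98% of all genes lay lower with no overlap.

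Chromosome 4 divided into parts. Nfib and Mycl lie in its middle part, taken here from 60 Mb to Slc2a5, which starts at base 150119283. The 611 tested genes of this part had a median log2 difference of -0.47, or -0.30 without JHK1398. Of these 611 genes, 79 (12.9%) lay lower with no overlap, against 8.76% of all genes, and 12 (1.96%) higher, against 5.81%. Their median deviation was 0.59 in the RPR2 tumor of JHK1373 and 0.22 in JHK1548, and -0.29 to -0.02 in JHK1394 and the 3 Nfib-floxed tumors. The tumors in which this stretch lay high were those with the highest Nfib. Of the 9 tested genes within 2 Mb of Nfib, 8 had a log2 difference below 0 (median -0.94) and none separated the groups. Without JHK1398, 6 were below 0 and the median was -0.42. They included the chromatin reader gene Psip1, at 776, 304 and 604 TPM in RPR2 and 329, 151 and 303 TPM in Nfib-floxed tumors. Of the 36 within 2 Mb of Mycl, 29 were below 0 (median -0.48), or 27 without JHK1398 (median -0.27). Of these 36 genes 3 lay lower with no overlap, a share near the 8.76% of all genes, and 1 higher. Mycl stood at 106 TPM in JHK1394, where the median deviation of these neighbours was -0.24, and at 48.8 TPM in JHK997, where it was 0.08.

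From Slc2a5 to the end of chromosome 4 the direction was the opposite. Of 90 tested genes there, 26 (28.9%) lay higher with no overlap, against 5.81% of all genes, and 0 lay lower. The median was 0.54, or 0.69 without JHK1398, and it ranged from 0.33 to 0.84 over the alternatives. The median deviation was -0.54, -0.01 and -0.36 in the RPR2 tumors and 0.49, 0.25 and 0.16 in the Nfib-floxed tumors, so the groups did not overlap. It was -0.52 and -0.55 in the RPR2 metastases, -0.59 in the metastasis of JHK1398 and 0.27 in that of JHK1399. The last 5 tested genes before the boundary, from Tmem201 to Gpr157, had log2 differences of -0.52 to -0.07. The first 6 after it were Slc2a5 (0.82), Eno1 (0.72), Rere (0.55), the pseudogene Gm13092 (-0.31), which lies within Rere, Slc45a1 (0.75) and Errfi1 (0.49). In Slc2a5, Eno1, Rere, Slc45a1 and Errfi1 the groups overlapped, and JHK1398 lay within or below the RPR2 range. This boundary, the one at 60 Mb and the windows were chosen after the values were seen, so no test is given.

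Of the 90 genes of the distal stretch 78 lay above 0 and 12 below. The genes given next are among those of smallest p there, and they do not stand for the rest. Perm1 (chr4:156215868-156221307), a regulator of energy metabolism in muscle, stood at 3.73, 3.91 and 4.93 TPM in RPR2 and 21.1, 17.0 and 16.3 TPM in Nfib-floxed lung tumors, and at 0.938, 2.56, 1.32 and 25.1 TPM in the metastases of JHK1373, JHK1394, JHK1398 and JHK1399. The cyclin L gene Ccnl2 stood at 85.02, 71.1 and 96.2 TPM against 267, 220 and 147 TPM in lung tumors. Dffb, the nuclease of apoptotic DNA fragmentation, stood at 7.62, 7.50 and 8.46 TPM against 35.0, 17.7 and 23.3 TPM. The clock gene Per3 stood at 19.4, 20.4 and 30.3 TPM against 92.4, 46.6 and 38.0 TPM. In these 4 genes every Nfib-floxed lung tumor lay above every RPR2 lung tumor. Tnfrsf4, among the 12 higher genes above, also lies in this stretch.

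**Figure D4:**
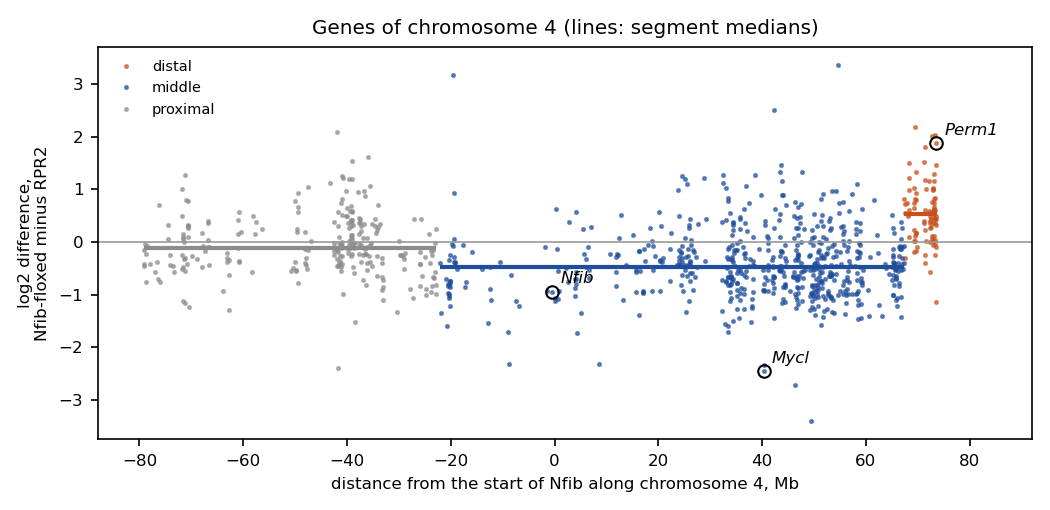
Log2 difference (Nfib-floxed minus RPR2) of each tested gene on chromosome 4 against its distance in Mb from the start of Nfib, in 3 segments whose medians are drawn as lines. The middle segment, with Nfib and Mycl, has a median of -0.47, and the distal segment, with Perm1, of 0.54.

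The X chromosome held 501 tested genes with a median of 0.20, or 0.59 without JHK1398. Its median deviation was 0.74 in the Nfib-floxed tumor of JHK1399, against -0.29 to 0.07 in the other 5 tumors. Without JHK1399 the direction turned, to -0.11. Med12, the X-linked gene among the 12 higher, stood above the RPR2 range in each of the 3 Nfib-floxed lung tumors. It stood at 77.6 TPM in the metastasis of JHK1399 against 26.8 to 41.8 TPM in the other 3 metastases.

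**Figure D5:**
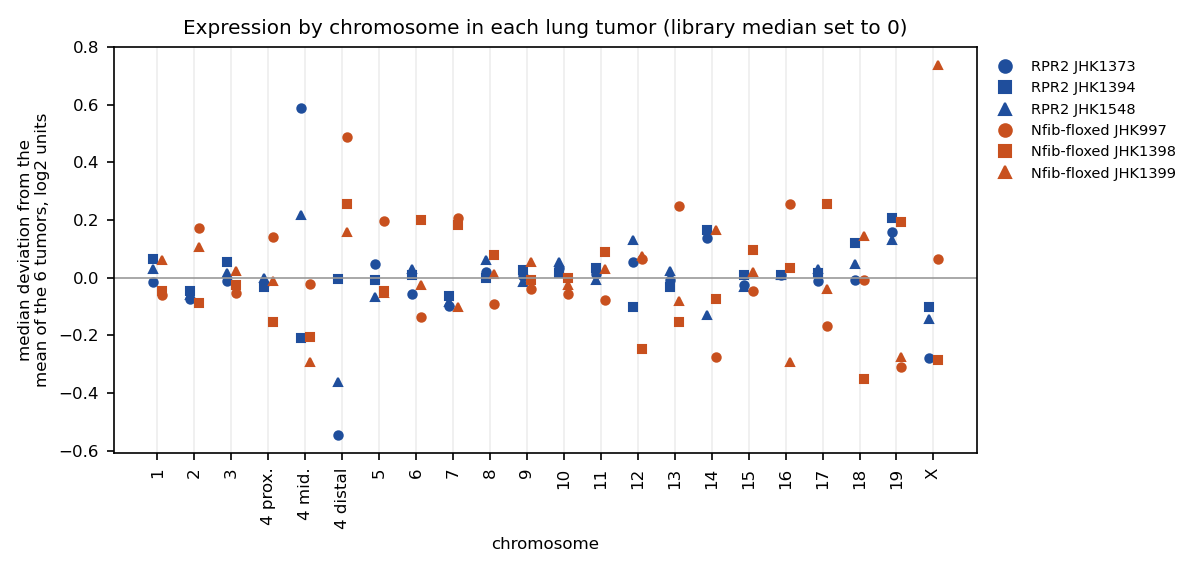
Median deviation of the tested genes of each chromosome in each lung tumor from the mean of the 6 tumors, in log2 units, with the library median set to 0 and chromosome 4 in 3 parts (proximal, before 60 Mb; middle; distal, from Slc2a5). Blue points are RPR2 and orange points Nfib-floxed tumors. The groups do not overlap on distal chromosome 4 (-0.54 to -0.01 against 0.16 to 0.49), nor, by a small margin, on chromosome 10. Chromosome 19 lies low in JHK997 and JHK1399, and X lies high in JHK1399.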

How the data were processed

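RNA-seq of the 6 lung tumors was analysed from the table the authors deposited, which holds TPM per gene. Per the labels' protocols, polyA RNA was selected and made into libraries by NEBNext Ultra II. The build GRCm38 and the tools Salmon 0.12.0, bcl2fastq 2.20 and R 4.1.0 are named per the submitters' processing notes. Settings, annotation and strand: not given in the sources used here. Antisense pairs and near-identical copies are therefore uncertain. Each library sums to 1000000 TPM, so depth is unknown and no counting interval is given.

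Differences were fitted with limma 3.58.1 (R 4.3.3), two-sided, on log2(TPM + 1) with moderated variances and a mean trend, where the 6 tumors averaged 1 TPM or more. A gene was called at a Benjamini-Hochberg adjusted p under 0.05. The code was tested on simulated data. Nfib was compared by an exact permutation test. Other steps ran in Python 3.11.15 (pandas 2.3.3, numpy 2.4.6, scipy 1.17.1, matplotlib 3.10.9). Where identifiers shared a symbol (74 cases), the one with the highest lung mean kept it. Positions come from the GENCODE annotation of GRCm38, which held 35028 of the 35288 identifiers. Named genes are the 12 of smallest p in each direction with no overlap and 5 TPM or more in the higher group, the 6 with the largest difference in mean TPM, the NFI and MYC families with model and subtype genes, up to 4 members per list, and neighbours of Nfib and Mycl within 2 Mb. Insm1, Nkx2-1, Mcm6, Cdh1, Vim, Scg2 and the segment genes were chosen after their values were seen. A gene that the rule takes is not reported here. The members, lists and alternatives were chosen with earlier results of these data known. Nothing in the labels says more than that the tumors come from different mice, and p-values measure the spread between them.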

Additional observations from a re-analysis of the deposited data

How the results depend on the processing

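The count of 0 called genes held in all 20 alternatives, with the smallest adjusted p (limma) between 0.111 with array weights and 1. The counts at an unadjusted p under 0.05 moved. They were 1442 higher and 1315 lower with array weights, 1296 and 1197 without JHK1394 and JHK1398, and 41 and 22 against a minimum log2 difference of 1; the cause was not tested, except that the last asks for a larger difference by construction. Leaving out each tumor in turn gave 238 to 1252 higher and 253 to 810 lower at that p, with the most higher genes without JHK1398. Genes with no overlap then numbered 1179 to 3095 higher and 1767 to 2604 lower, since fewer tumors separate more easily. No paired analysis was possible because the 6 lung tumors come from 6 different mice and carry no shared replicate number. A fit of all 4 groups with mouse as replicate block gave 0 called genes, with 487 higher and 741 lower at an unadjusted p under 0.05, and 488 and 742 without the block. Of 292 named log2 differences, 236 kept their sign in every alternative, as did 21 of 54 list medians, among them those of mitosis, replication, ribosome biogenesis, epithelial and interferon genes. The Nfib level difference ranged from -67.2 to -22.4 TPM when 1 tumor was left out. With 3 tumors a group, depth unknown and whole tumors sampled, differences smaller than the spread between mice were not detectable. Genes whose groups lay at least 2-fold apart on TPM + 1 were not called either.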
